A study of Homo sapiens with 7 samples.

Results

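RBM20, RBM24, RBFOX2, MBNL1, MBNL2, MBNL3, CELF1, CELF2, QKI and RBPMS encode RNA-binding proteins that choose exons in muscle. All 10 were looked up by symbol among the 23262 genes with FPKM values, and all 10 were found. FPKM counts sequenced fragments per length of transcript and relative to all mapped fragments, so levels of different genes can be set side by side. Of these 10 genes, 8 reached 5 FPKM in at least 1 library, and MBNL1 and MBNL3 did not.

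The study followed a human embryonic stem cell line, labelled H3, on its way to heart muscle, with 1 RNA-seq library for each of 7 cell populations. Every population carries the same pair of reporters, eGFP at NKX2-5, a transcription factor gene of heart precursors, and mCherry for alpha-MHC, the myosin heavy chain encoded by MYH6. The line's name is numbered upward from NKX2-5 over the samples in the labels, and it was read as a single line. The populations were undifferentiated cells (hESC, day 0), day 3 CD13+/ROR2+ cells (labelled mesoderm progenitor), day 3 CD13-/ROR2- cells (labelled endoderm progenitor), day 7 NKX2-5+ cells (labelled cardiac progenitor), day 7 NKX2-5- cells, day 14 aMHC+ cells (labelled cardiomyocytes) and day 14 aMHC- cells. The day 7 and day 14 populations are also labelled CD13+/ROR2+, both day 14 populations are NKX2-5+, and the labels give the cell type of day 7 NKX2-5- and day 14 aMHC- as unknown. With 1 library per population there is no replicate spread and no test, so every difference below is one between single libraries.

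Most genes of muscle are transcribed into RNA that can be joined in more than one way, and the adult heart uses exons that embryonic cells skip. RNA-binding proteins decide this by sitting on short motifs beside an exon, where they help or block its recognition. RBM20 and RBM24 are found mainly in striated muscle, RBFOX2, QKI, MBNL and CELF proteins in many tissues, and RBPMS is known as a regulator of smooth muscle splicing. MBNL and CELF proteins oppose each other at many exons during heart development, and MBNL proteins are trapped on repeat RNA in myotonic dystrophy. The deposited values are gene totals, which give the amount of each regulator's RNA and nothing about which exons were used.

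The libraries differ in depth and in scale. Relative to hESC, the depth read from the steps between low values was lowest in day 7 NKX2-5+ (0.605 times) and highest in day 14 aMHC- (3.08 times), while for day 7 NKX2-5- the estimate was not sharp. Median-ratio scaling over 7780 genes gave a general offset of -0.43 (log2) for day 7 NKX2-5+ over day 7 NKX2-5-, of -0.69 over day 3 CD13+/ROR2+, and of 0.61 for day 14 aMHC+ over day 7 NKX2-5+. It gave -0.26 for day 7 NKX2-5- over day 3 CD13+/ROR2+ and -0.21 for the day 14 pair, and no more than 0.08 in size elsewhere. Ratios are therefore given as log2 of (FPKM + 1) over (FPKM + 1) in the deposited values, with the value after this scaling behind it where the offset exceeds 0.1. Such a ratio is smaller than the plain quotient for low genes. A gene was called higher or lower where the ratio was at least 2 in size (4-fold) and the higher library held at least 5 FPKM. Of 8 heart marker genes, all 8 had higher values in day 7 NKX2-5+ than in day 7 NKX2-5-. In day 14 aMHC+ over day 14 aMHC-, 7 were higher and 1 lower. Troponin T (TNNT2) was at 934 FPKM in day 7 NKX2-5+ and 180 in day 7 NKX2-5-. It was at 1133 in day 14 aMHC+, 535 in day 14 aMHC- and 0.280 in hESC. The 1 lower on day 14 was NKX2-5 (63.2 FPKM in aMHC+ against 85.5 in aMHC-), named after its values were seen. MYH6 was at 531 FPKM in day 7 NKX2-5+ and 342 in day 14 aMHC+. The day 3 CD13-/ROR2- library went against its endoderm label: the CD13+/ROR2+ cells of that day held 17.8 FPKM of the endoderm gene SOX17 and the CD13-/ROR2- cells 2.71, with FOXA2 at 3.88 against 0.0874. Of the pluripotency gene NANOG the CD13+/ROR2+ cells held 0.660 FPKM and the CD13-/ROR2- cells 27.5, with SOX2 at 0.295 against 68.0. The higher SOX17 and FOXA2 values were thus in the library labelled mesoderm progenitor. The CD13-/ROR2- library also differed from hESC, where SOX17 was listed at 0. Of the mesoderm markers, 4 could be called over hESC and all 4 were higher, beside 1.45% of all genes. MIXL1 was at 82.0 FPKM in CD13-/ROR2-, 1.43 in hESC and 210 in CD13+/ROR2+. The CD13-/ROR2- library is called by its sort below.

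**Figure D1:**
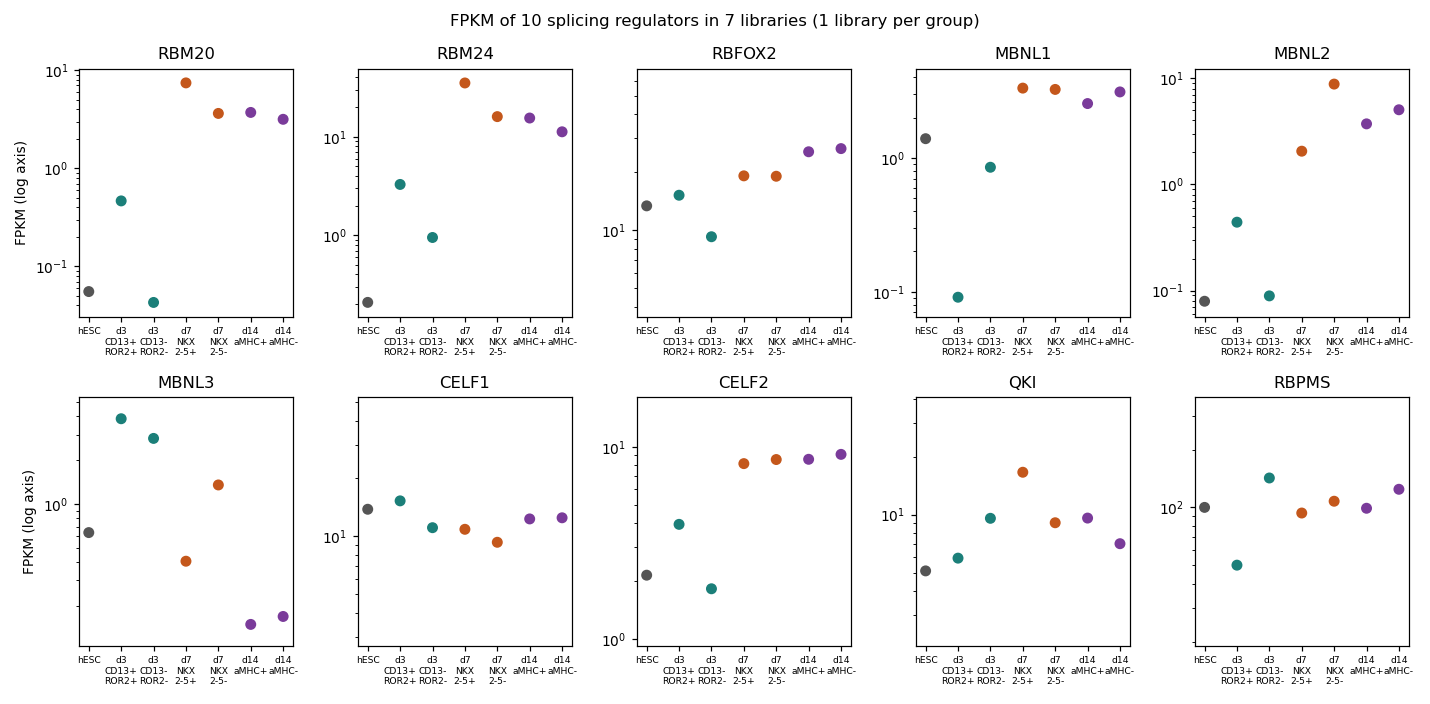
FPKM (log axis, a different range in each panel) of the 10 genes in the 7 libraries, from hESC on the left to day 14 on the right. Each point is 1 library, coloured by day, and RBM20, RBM24, MBNL1, MBNL2, RBFOX2 and CELF2 have all 4 points of days 7 and 14 above the 3 earlier ones.

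In 6 of the 10 genes, every library of days 7 and 14 stood above hESC and both day 3 libraries. These were RBM20, RBM24, RBFOX2, MBNL1, MBNL2 and CELF2, and the same 6 after scaling. The count was made after the values were seen, and 11.0% of the 7716 genes that reach 5 FPKM in some library share the pattern, beside 5 of the 8 regulators that reach that level. After scaling it was 18.2% of 7609 genes, beside the same number of regulators. Of the regulators with the pattern, RBM20, RBM24, MBNL2 and CELF2 reached 5 FPKM in late libraries only. The minimum thus admitted them through the libraries where they are high, and it left out MBNL3, at 3.86 FPKM or less. No conclusion is drawn from the 5 of 8. CELF1, QKI and RBPMS had overlapping early and late values, and MBNL3 was highest on day 3. In bulk RNA, fewer cells that make a transcript and less of it per cell cannot be told apart, which holds for each value here.

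RBM24, a muscle-enriched RNA recognition motif protein that promotes muscle exons and is needed for sarcomere assembly, spanned 168-fold. It was at 0.209 FPKM in hESC, 3.28 in day 3 CD13+/ROR2+, 0.950 in day 3 CD13-/ROR2-, 35.1 in day 7 NKX2-5+, 15.99 in day 7 NKX2-5-, 15.5 in day 14 aMHC+ and 11.2 in day 14 aMHC-. The late libraries did not overlap the early ones, and the single highest value was that of the day 7 NKX2-5+ library. The CD13+/ROR2+ value of day 3 lay 3.45-fold above the CD13-/ROR2- value and 15.7-fold above hESC.

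RBM20, which represses exons of titin and other sarcomere and calcium handling transcripts and is mutated in a form of dilated cardiomyopathy, spanned 173-fold at lower levels. It was at 0.0554 FPKM in hESC, 0.465 in day 3 CD13+/ROR2+, 0.0429 in day 3 CD13-/ROR2-, 7.43 in day 7 NKX2-5+, 3.63 in day 7 NKX2-5-, 3.71 in day 14 aMHC+ and 3.16 in day 14 aMHC-. The order was much like that of RBM24, with day 7 NKX2-5+ highest, the other late libraries close together, and day 3 CD13+/ROR2+ above both other early libraries. The lowest values rest on few reads. At the length of the longest GENCODE transcript of RBM20, 7233 bases, and at the smallest number of reads per sample that the labels state, 0.0429 FPKM stands for 3.72 fragments and 0.465 FPKM for 40.4. Folds against hESC or day 3 CD13-/ROR2- are imprecise to that extent.

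Across the 7 libraries the log2 values of RBM20 and RBM24 had a Pearson correlation of 0.982, the highest of all pairs among the 10 genes. The points share their libraries and depth, and no p is attached to this or the following correlations. Because the pair moved together, the windows around their RefSeq transcript starts are shown, from 250 bases before to 50 bases after the start, 5′ to 3′, with CG dinucleotides in capitals. Both lie on the plus strand of GRCh38.p14, RBM20 at chr10:110644086-110644385 and RBM24 at chr6:17281814-17282113. RefSeq start windows were found for 7 of the 10 genes and not for RBFOX2, QKI and RBPMS.
RBM20: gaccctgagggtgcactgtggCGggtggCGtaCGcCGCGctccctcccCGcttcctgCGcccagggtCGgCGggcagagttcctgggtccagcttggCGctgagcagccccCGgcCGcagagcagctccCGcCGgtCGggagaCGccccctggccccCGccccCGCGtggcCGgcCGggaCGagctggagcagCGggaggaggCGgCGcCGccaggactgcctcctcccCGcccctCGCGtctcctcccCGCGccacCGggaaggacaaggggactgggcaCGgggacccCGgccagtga
RBM24: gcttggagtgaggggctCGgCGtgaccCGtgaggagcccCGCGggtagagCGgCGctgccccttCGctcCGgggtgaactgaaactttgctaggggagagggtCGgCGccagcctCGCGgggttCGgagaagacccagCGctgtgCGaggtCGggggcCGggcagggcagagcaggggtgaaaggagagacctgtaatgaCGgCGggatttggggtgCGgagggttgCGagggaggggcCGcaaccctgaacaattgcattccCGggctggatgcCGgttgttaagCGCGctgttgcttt

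The RBM20 window held 34 CG dinucleotides and 77.7% G and C, and the RBM24 window 27 and 66.7%. Among 35116 RefSeq windows of this length, 84.4% held fewer CG than the RBM20 window and 71.8% fewer than the RBM24 window. Motifs of heart and muscle factors were searched on both strands. The E-box CANNTG was met 1 time in the RBM24 window (as CAATTG, a palindrome just after the start) and not in that of RBM20, and 68.7% of all windows hold it. Neither window held AAGTG, the core of NK-2 factor sites (43.1% of all windows), the GATA motif AGATAA (10.3%), a CArG box (1.29%), a MEF2 site (2.99%) or TATAAA (11.5%). Sites outside these letters and windows were not searched.

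MBNL proteins are zinc finger regulators that shift transcripts to adult splicing patterns. The 3 genes of the family followed different courses. MBNL1 was at 1.39 FPKM in hESC, 0.0910 in day 3 CD13+/ROR2+, 0.853 in day 3 CD13-/ROR2-, 3.33 in day 7 NKX2-5+, 3.26 in day 7 NKX2-5-, 2.55 in day 14 aMHC+ and 3.12 in day 14 aMHC-. The day 3 CD13+/ROR2+ library stood apart, at 0.107 times the CD13-/ROR2- value, and the 4 late libraries were close to each other as deposited. After scaling MBNL1 was at 4.85 in day 7 NKX2-5+, 3.51 in day 7 NKX2-5-, 2.43 in day 14 aMHC+ and 2.56 in day 14 aMHC-. At the longest transcript of 6458 bases and the same number of reads the low value stands for 7.05 fragments. MBNL1 exons overlap an antisense gene in GENCODE 29 (MBNL1-AS1), and the library kit does not keep strand, so reads of both cannot be told apart. The same holds for a second one, AC026347.1.

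MBNL2 was at 0.0794 FPKM in hESC, 0.441 in day 3 CD13+/ROR2+, 0.0892 in day 3 CD13-/ROR2-, 2.06 in day 7 NKX2-5+, 8.81 in day 7 NKX2-5-, 3.72 in day 14 aMHC+ and 5.05 in day 14 aMHC-. Among the 10 genes it alone had its highest value in day 7 NKX2-5-, 4.28-fold above day 7 NKX2-5+. MBNL3, which opposes muscle differentiation in mouse cell lines, ran the other way in time. It was at 0.637 FPKM in hESC, 3.86 in day 3 CD13+/ROR2+, 2.83 in day 3 CD13-/ROR2-, 0.405 in day 7 NKX2-5+, 1.35 in day 7 NKX2-5-, 0.149 in day 14 aMHC+ and 0.169 in day 14 aMHC-. Its values on day 3 were the highest, and both day 14 values the lowest.

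As a share of the summed FPKM of the 3 MBNL genes, MBNL3 took 30.2% in hESC, 87.9% in day 3 CD13+/ROR2+ and 75.0% in day 3 CD13-/ROR2-. On day 7 it took 7.0% in NKX2-5+ and 10.1% in NKX2-5-, and on day 14 it took 2.32% in aMHC+ and 2.03% in aMHC-. MBNL1 had the largest share in hESC (66.0%) and in day 7 NKX2-5+ (57.5%), MBNL2 in day 7 NKX2-5- (65.6%), day 14 aMHC+ (57.9%) and day 14 aMHC- (60.6%). The leading member of the family thus differed between hESC, day 3 and day 14, and between the day 7 fractions. These shares do not depend on the scaling of a library. The summed level was lowest in hESC (2.11 FPKM) and highest in day 7 NKX2-5- (13.4 FPKM).

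CELF1 and CELF2, which bind GU-rich RNA and favour embryonic exons at many MBNL targets, differed from each other. CELF1 was at 13.8 FPKM in hESC, 15.3 in day 3 CD13+/ROR2+, 11.1 in day 3 CD13-/ROR2-, 10.9 in day 7 NKX2-5+, 9.29 in day 7 NKX2-5-, 12.3 in day 14 aMHC+ and 12.5 in day 14 aMHC-. Its 1.64-fold range was the narrowest of the 10 genes, with late values inside or below the early ones as deposited. After scaling, CELF1 was highest in day 7 NKX2-5+, at 15.8 against 13.8 in day 3 CD13+/ROR2+, the highest early library. CELF2 was at 2.14 FPKM in hESC, 3.94 in day 3 CD13+/ROR2+, 1.82 in day 3 CD13-/ROR2-, 8.16 in day 7 NKX2-5+, 8.57 in day 7 NKX2-5-, 8.60 in day 14 aMHC+ and 9.12 in day 14 aMHC-. The late libraries were alike as deposited and all above the early ones. After scaling CELF2 was at 11.9 in day 7 NKX2-5+, 9.26 in day 7 NKX2-5-, 8.17 in day 14 aMHC+ and 7.49 in day 14 aMHC-. These scaled values were still above the early ones. CELF2 made up 13.4% of the CELF1 and CELF2 sum in hESC, 20.5% in day 3 CD13+/ROR2+ and 14.1% in day 3 CD13-/ROR2-, and between 41.2% and 48.0% in the 4 late libraries.

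RBFOX2, which binds near exons of both stem cell and muscle transcripts, was at 13.4 FPKM in hESC, 15.2 in day 3 CD13+/ROR2+, 9.24 in day 3 CD13-/ROR2-, 19.2 in day 7 NKX2-5+, 19.1 in day 7 NKX2-5-, 25.6 in day 14 aMHC+ and 26.6 in day 14 aMHC-. Fractions of the same late day were nearly equal, and day 14 was above day 7 as deposited. After scaling that order was lost, with 24.3 in day 14 aMHC+ and 21.8 in day 14 aMHC- against 27.9 in day 7 NKX2-5+ and 20.6 in day 7 NKX2-5-. The paralogs RBFOX1 and RBFOX3 were low. RBFOX1, best known from neurons and muscle, had its highest value of 1.51 FPKM in day 7 NKX2-5+, and RBFOX3 was at 1.73 in hESC, 0.248 in day 3 CD13+/ROR2+ and 2.34 in day 3 CD13-/ROR2- and listed at 0 in the 4 late libraries.

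QKI, a STAR-family protein that acts in splicing and in formation of circular RNA, was at 5.10 FPKM in hESC, 5.94 in day 3 CD13+/ROR2+, 9.58 in day 3 CD13-/ROR2-, 16.6 in day 7 NKX2-5+, 9.08 in day 7 NKX2-5-, 9.60 in day 14 aMHC+ and 7.06 in day 14 aMHC-. As with RBM24, RBM20 and MBNL1 the day 7 NKX2-5+ library was highest, but the remaining late values of QKI overlapped the early ones. After scaling that library was also highest for RBFOX2, CELF1, CELF2 and, narrowly, RBPMS, but not for MBNL2 and MBNL3. RBPMS, whose protein directs splicing in smooth muscle, was the most abundant of the 10 genes in every library. It was at 100.1 FPKM in hESC, 50.1 in day 3 CD13+/ROR2+, 142 in day 3 CD13-/ROR2-, 93.6 in day 7 NKX2-5+, 108 in day 7 NKX2-5-, 99.1 in day 14 aMHC+ and 124 in day 14 aMHC-. Its lowest value was that of day 3 CD13+/ROR2+ and, as deposited, its highest that of the other day 3 fraction. After scaling, RBPMS was at 136 in both day 3 CD13-/ROR2- and day 7 NKX2-5+. RBPMS has an antisense neighbour with overlapping exons (RBPMS-AS1), with the same limit as for MBNL1.

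**Figure D2:**
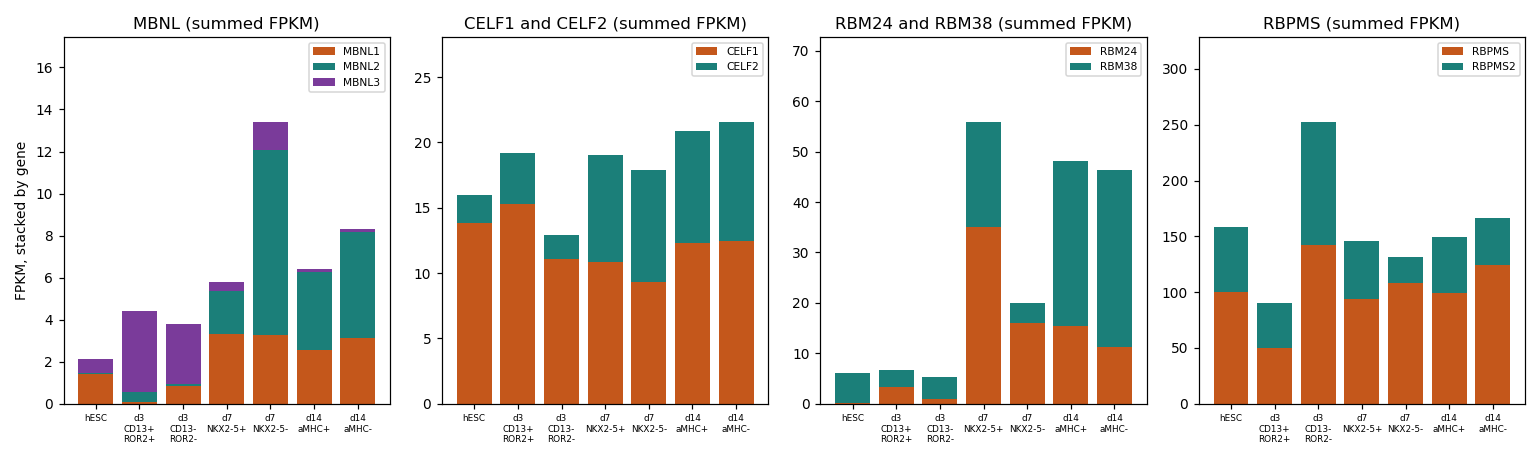
Stacked FPKM (linear axis from 0) of MBNL1, MBNL2 and MBNL3, of CELF1 and CELF2, of RBM24 and its paralog RBM38, and of RBPMS and its paralog RBPMS2, in 7 libraries of 1 sample each. MBNL3 fills most of the MBNL bar on day 3 and MBNL2 most of it in day 7 NKX2-5- and on day 14.

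Paralogs outside the 10 genes were read from a separate list of 8. RBM38, the closest relative of RBM24 and a target of p53, was at 5.82 FPKM in hESC, 3.37 in day 3 CD13+/ROR2+, 4.33 in day 3 CD13-/ROR2-, 20.8 in day 7 NKX2-5+, 3.91 in day 7 NKX2-5-, 32.7 in day 14 aMHC+ and 35.1 in day 14 aMHC-. Only libraries sorted as NKX2-5+ exceeded 6 FPKM. RBM24 was above RBM38 in both day 7 libraries and below it in both day 14 libraries. RBPMS2 was at 58.5 FPKM in hESC, 40.6 in day 3 CD13+/ROR2+, 110.3 in day 3 CD13-/ROR2-, 52.4 in day 7 NKX2-5+, 23.5 in day 7 NKX2-5-, 49.95 in day 14 aMHC+ and 41.6 in day 14 aMHC-. Like RBPMS, it was highest in day 3 CD13-/ROR2- as deposited. On the list RBM38 alone was called, higher in day 7 NKX2-5+ over day 7 NKX2-5- (2.15, or 2.58 after scaling), in day 7 NKX2-5+ over day 3 CD13+/ROR2+ (2.32, or 2.95) and in day 14 aMHC+ over hESC (2.30). RBPMS2 and RBFOX1 were named after their values were seen.

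The comparison of day 3 CD13+/ROR2+ with CD13-/ROR2- asks what separates the fraction labelled mesoderm progenitor from the other sorted fraction of that day. Of the 5875 genes that could be called, 3.69% were higher and 2.54% lower in CD13+/ROR2+. Among the 10 regulators, 4 could be called and 0 were. RBPMS had the ratio largest in size (-1.49, at 50.1 against 142 FPKM). RBM24 had 1.13 and CELF2 0.81, both under 5 FPKM. The median of the 10 genes was 0.42, but -0.09 for the 4 that could be called, beside 0.03 for all genes that could be called.

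Both day 3 fractions were also set against hESC. For CD13+/ROR2+, 4.5% of 5871 genes were higher and 2.54% lower, and 0 of the 4 regulators that could be called were among them. RBM24 (1.82) and MBNL3 (1.57) had the highest ratios, MBNL1 (-1.13) and RBPMS (-0.98) the lowest. For CD13-/ROR2-, 1.45% of 5705 genes were higher and 1.17% lower, again with 0 of 4 regulators. MBNL3 had the highest ratio there too (1.23), followed by QKI (0.79). Relative to hESC, RBPMS lay lower in the CD13+/ROR2+ fraction and higher in the other. The 2 comparisons share the hESC library.

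The day 7 comparison asks how cells with and without the NKX2-5 reporter differ. In NKX2-5+, 2.03% of 4981 genes were higher and 5.42% lower, a balance that shifted after scaling, from 27.2% to 44.4% of called genes being higher. Of 8 regulators that could be called, 0 were. RBM24 had a ratio of 1.09 (1.51 after scaling), RBM20 0.86 (1.26) and QKI 0.81 (1.22), each about the size of a 2.2-fold or smaller quotient in the deposited values. MBNL2 was on the other side at -1.68 (-1.40). RBFOX2, MBNL1, CELF1, CELF2 and RBPMS lay between -0.20 and 0.20 as deposited and between 0.23 and 0.61 after scaling. The median of the 8 regulators that could be called was 0.11, beside -0.47 for all such genes, both as deposited. Over all 10 regulators it was 0.02.

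Markers of other cell types moved with this day 7 difference. The 6 fibroblast and matrix markers summed to 43.7 FPKM in NKX2-5+ and 689 in NKX2-5-, with none at 0 in either. The 5 endoderm markers summed to 20.1 FPKM in NKX2-5+ and 145 in NKX2-5-, with 2 of them (SOX17 and FOXA2) at 0 in NKX2-5+ and none in NKX2-5-. The 8 cardiomyocyte markers summed to 2977 FPKM in NKX2-5+ and 604 in NKX2-5-, so that the NKX2-5- library also held heart muscle RNA. Of the 6 smooth muscle markers 4 could be called and 2 were called lower, TAGLN (21.1 FPKM in NKX2-5+ against 144 in NKX2-5-) and CALD1 (7.41 against 73.7). Their sum of 506 FPKM in NKX2-5+ and 670 in NKX2-5- was mostly ACTA2 (456 against 421). Endothelial markers summed to 7.63 FPKM in NKX2-5+ and 21.4 in NKX2-5-. The blood markers PTPRC and HBG1 were at 0 in both. Their part in the values of MBNL2, RBM24 and the other regulators was not tested.

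**Figure D3:**
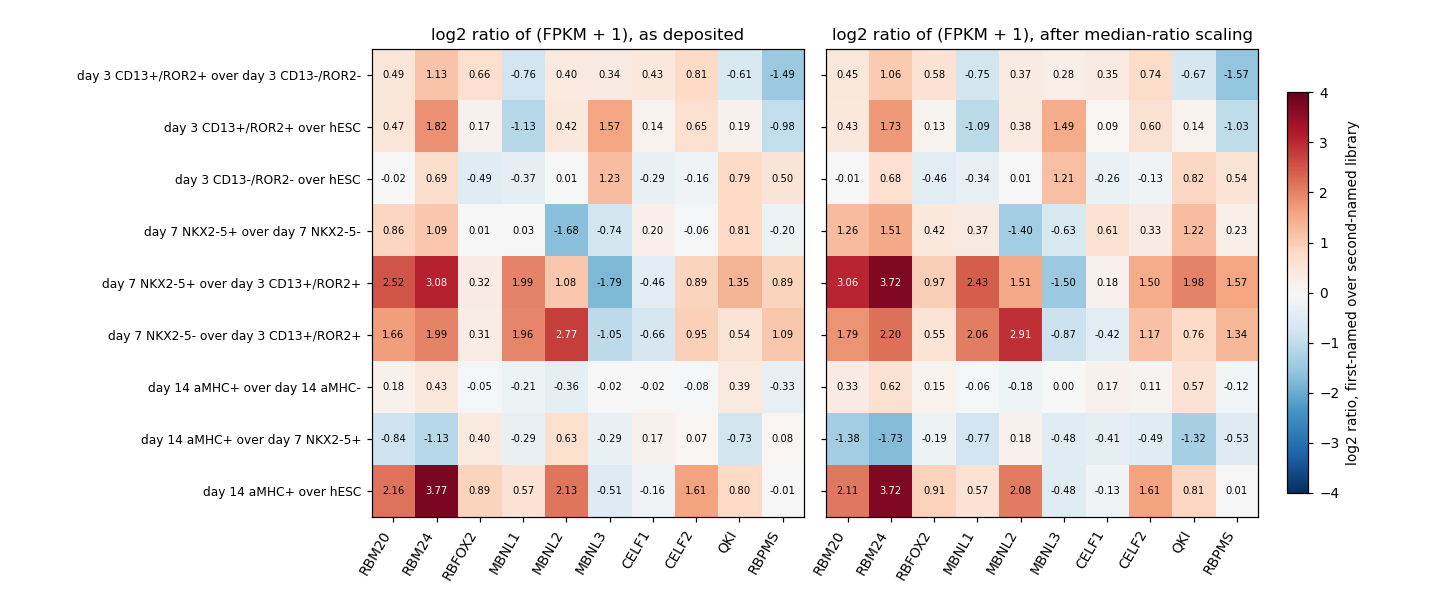
log2 ratios of (FPKM + 1) for the 10 genes (columns) in 9 comparisons (lines, the first-named library over the second-named), as deposited on the left and after median-ratio scaling on the right. The deepest red fields are RBM24 in day 14 aMHC+ over hESC (3.77 as deposited, 3.72 after scaling) and RBM24 in day 7 NKX2-5+ over day 3 CD13+/ROR2+ (3.08 as deposited, 3.72 after scaling).

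From the day 3 CD13+/ROR2+ library to day 7, RBM20 and RBM24 passed the 4-fold rule in NKX2-5+ and MBNL2 in NKX2-5-. In day 7 NKX2-5+, 4.38% of 5633 genes were higher and 9.09% lower than in day 3 CD13+/ROR2+, and after scaling 58.9% of called genes were higher in place of 32.5%. Of 7 regulators that could be called, 2 were higher and 0 lower. RBM24 stood at 35.1 against 3.28 FPKM, a ratio of 3.08 (3.72 after scaling), and RBM20 at 7.43 against 0.465 FPKM, a ratio of 2.52 (3.06). QKI had 1.35 (1.98), just short of the rule after scaling. The median of the 7 was 0.89, beside -0.77 for all genes that could be called, both as deposited. RBM20, RBM24 and CELF2 passed the minimum of 5 FPKM through their day 7 values only. MBNL1 (1.99), MBNL2 (1.08) and MBNL3 (-1.79) did not pass it, and over all 10 regulators the median was 0.99. With a pseudocount of 5 the call of RBM20 was lost (1.19). MBNL1 (1.99, or 2.43) stayed under 5 FPKM and could not be called in either, but was called when libraries were scaled to equal sums (2.58). The sign of CELF1 depended on the scaling (-0.46 as deposited, 0.18 after it). The cardiomyocyte markers summed to 2977 FPKM in day 7 NKX2-5+ and 11.7 in day 3 CD13+/ROR2+, and their part in these values was not tested.

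In day 7 NKX2-5-, 5.35% of 5939 genes were higher and 3.69% lower than in day 3 CD13+/ROR2+. MBNL2 was called higher, as 1 of the 7 regulators that could be, at 8.81 against 0.441 FPKM, a ratio of 2.77 (2.91). With a pseudocount of 5 that call was lost (1.34). Fibroblast and matrix markers summed to 689 FPKM in day 7 NKX2-5- and 13.6 in day 3 CD13+/ROR2+, smooth muscle markers to 670 in day 7 NKX2-5- against 19.5, and endoderm markers to 145 in day 7 NKX2-5- against 23.3. Their part in the MBNL2 value was not tested. RBM24 missed the rule narrowly as deposited and passed it after scaling, at 15.99 against 3.28 FPKM with ratios of 1.99 and 2.20. RBM20 (1.66, or 1.79) and MBNL1 (1.96, or 2.06) had under 5 FPKM. RBPMS had 1.09 (1.34), CELF2 0.95 (1.17) and MBNL3 -1.05 (-0.87). This comparison and the last share the day 3 library, so their values stand side by side and are not independent.

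On day 14 the fractions with and without the alpha-MHC reporter were close for all 10 genes. In aMHC+, 0.648% of 5712 genes were higher and 0.35% lower than in aMHC-, and 0 of the 7 regulators that could be called were among them. The ratios lay between -0.36 (MBNL2) and 0.43 (RBM24) as deposited, and between -0.18 (MBNL2) and 0.62 (RBM24) after scaling. QKI had 0.39 (0.57). In the same libraries the 8 cardiomyocyte markers summed to 5063 FPKM in aMHC+ and 1861 in aMHC-. Most of both sums was MYL7 (3082 FPKM in aMHC+ and 980 in aMHC-). Of the 8, 2 were called higher in aMHC+, and NKX2-5 had the lower value there (63.2 against 85.5 FPKM). The 6 fibroblast and matrix markers summed to 347 FPKM in aMHC+ and 719 in aMHC-. Of these, 5 could be called and 0 were, with 5 lower and 1 higher in aMHC+. The part of cells with these markers in the ratios was not tested.

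Day 14 aMHC+ was then set against day 7 NKX2-5+ and against hESC. Over day 7 NKX2-5+, 7.68% of 5310 genes were higher and 0.829% lower, a balance that fell to 65.3% of called genes being higher after scaling, against 90.3% before. Of 7 regulators that could be called, 0 were. RBM24 stood at 15.5 against 35.1 FPKM (-1.13, or -1.73 after scaling), RBM20 at 3.71 against 7.43 (-0.84, or -1.38) and QKI at 9.60 against 16.6 (-0.73, or -1.32). RBFOX2, CELF1, CELF2 and RBPMS were slightly above 0 as deposited (0.07 to 0.40) and below it after scaling (-0.53 to -0.19). Over hESC, 8.76% of 6382 genes were higher and 6.57% lower, and RBM24 was the single regulator called of 6 that could be. It stood at 15.5 against 0.209 FPKM, a ratio of 3.77. RBM20 (2.16) and MBNL2 (2.13) passed in size with under 5 FPKM, CELF2 had 1.61 (8.60 against 2.14 FPKM), and CELF1 and RBPMS were at -0.16 and -0.01. The median of the 6 that could be called was 0.84, beside 0.02 for all such genes. RBM24 and CELF2 passed the minimum of 5 FPKM through their day 14 values only, and over all 10 regulators the median was also 0.84. With a pseudocount of 5 the call of RBM24 was lost (1.97).

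Other splicing regulators were read from lists of epithelial regulators, of PTBP, NOVA, ELAVL and related proteins, of SR proteins and of hnRNP proteins. ESRP1 and RBM47, which hold epithelial exon choices, ran opposite to RBM24. ESRP1 was at 31.8 FPKM in hESC, 7.02 in day 3 CD13+/ROR2+, 41.9 in day 3 CD13-/ROR2-, 0.274 in day 7 NKX2-5+, 0.573 in day 7 NKX2-5-, 0.129 in day 14 aMHC+ and 0.281 in day 14 aMHC-. RBM47 was at 9.76 FPKM in hESC and no higher than 0.502 in any late library. Of the 3 epithelial regulators, 2 could be called in day 14 aMHC+ over hESC, and both were lower, beside 6.57% of all genes. ESRP1 alone was called lower in day 3 CD13+/ROR2+, as 1 of 3 over CD13-/ROR2- and 1 of 2 over hESC. Of all genes, 2.54% were lower in each of these. Over day 3 CD13+/ROR2+, ESRP1 was the 1 that could be called in each day 7 library. It was lower in NKX2-5+, beside 9.09% of all genes, and in NKX2-5-, beside 3.69%.

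PTBP1, which blocks neuronal and muscle exons in many cells, was at 39.2 FPKM in hESC, 63.6 in day 3 CD13+/ROR2+, 59.0 in day 3 CD13-/ROR2-, 11.1 in day 7 NKX2-5+, 48.3 in day 7 NKX2-5-, 21.8 in day 14 aMHC+ and 35.0 in day 14 aMHC-. It was lowest where RBM24 was highest, but the 2 genes were not opposed throughout. In day 7 NKX2-5-, with RBM24 at 15.99 FPKM, PTBP1 was above its value in hESC, where RBM24 was at 0.209. Its ratio in day 7 NKX2-5+ over day 3 CD13+/ROR2+ was -2.41, but -1.77 and no longer called after scaling. Over day 7 NKX2-5- it was -2.02, and -1.63 after scaling, again no longer called. KHDRBS3 stood at 0.673 FPKM in day 7 NKX2-5+ against 6.59 in day 3 CD13+/ROR2+, with -2.18 and, no longer called, -1.81 after scaling. Of the 13 genes on that list no other was called anywhere.

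The 17 hnRNP genes were all below 0 in day 7 NKX2-5+ over day 3 CD13+/ROR2+, with a median of -1.42 (-0.75 after scaling) beside -0.77 (-0.06) for all genes that could be called. Of these 17, 0 passed the 4-fold rule. In day 14 aMHC+ over hESC their median was -0.72, beside 0.02 for all genes. HNRNPD was listed at 0 in hESC and day 3 CD13-/ROR2- and HNRNPC in both day 14 libraries, although both are abundant elsewhere (HNRNPD at 133 FPKM in day 3 CD13+/ROR2+, HNRNPC at 79.4 in hESC), and their calls rest on those zeros, which can be failed estimates. The 14 SR genes had medians of -0.89 (-0.30 after scaling) and -0.19 in the same pair of comparisons. SRSF9 was called in day 14 aMHC+ over day 7 NKX2-5+ (59.8 against 9.88 FPKM, 2.48) and, on the other side, in day 7 NKX2-5+ over day 3 CD13+/ROR2+ (9.88 against 51.3 FPKM, -2.27), and neither call was kept after scaling (1.91 and -1.62). SRSF11 had -1.54 (-0.90) in day 7 NKX2-5+ over day 3 CD13+/ROR2+, at 10.3 against 31.8 FPKM.

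**Figure D4:**
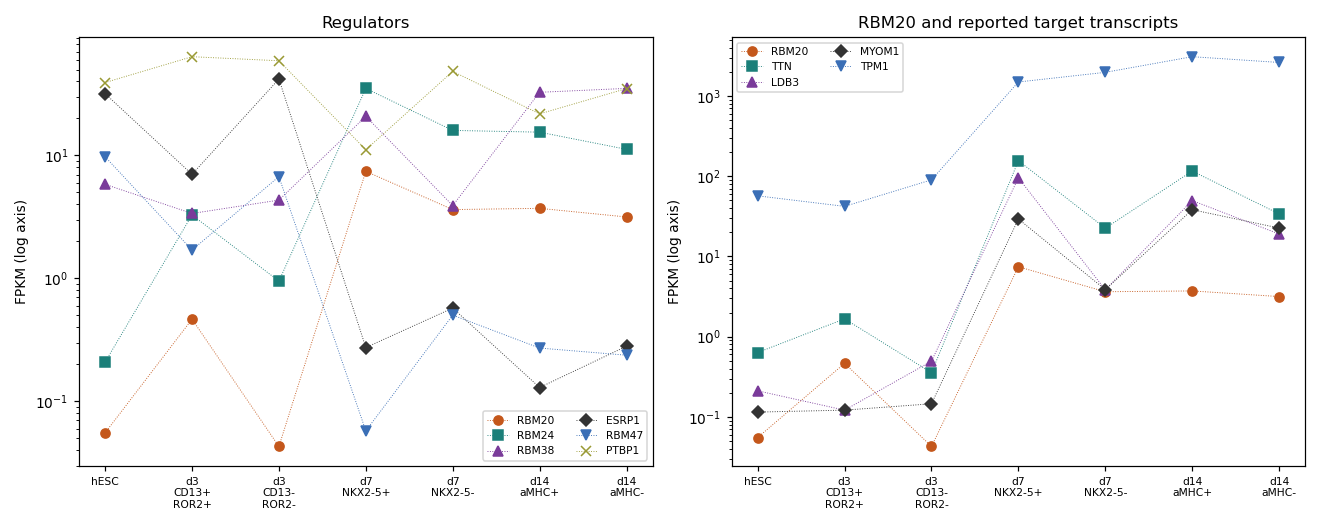
FPKM (log axis) in 7 libraries of 1 sample each, for RBM24, RBM20, RBM38, ESRP1, RBM47 and PTBP1 (left panel) and for RBM20 with TTN, LDB3, MYOM1 and TPM1 (right panel). Dotted lines join points of a gene for the eye and mark no time course between fractions of a day, and RBM24 and ESRP1 lie on opposite sides between the early and the late libraries.

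Transcripts reported as spliced by RBM20 in rat and human heart were read as a list of 20. Their amounts, not their exons, were measured. In day 7 NKX2-5+ over day 7 NKX2-5-, 17 of the 20 could be called, and 5 were called higher (7 after scaling) and 1 lower, beside 2.03% higher and 5.42% lower of all genes. The median ratio was 1.36 (1.75) over the 20 and 0.79 as deposited over the 17. Cardiomyocyte markers summed to 2977 FPKM in NKX2-5+ and 604 in NKX2-5-, and their part in these counts was not tested. Titin (TTN) stood at 156 against 22.4 FPKM and the Z-disc gene LDB3 at 95.2 against 3.83, while RBM20 itself was at 7.43 against 3.63. The 1 called lower was PDLIM3, at 4.46 against 30.9 FPKM.

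In day 7 NKX2-5+ over day 3 CD13+/ROR2+, 9 of the 16 that could be called were higher and 0 lower, beside 4.38% higher and 9.09% lower of all genes (median over the 20 of 2.04, or 2.48 after scaling). In day 7 NKX2-5- over the same library 4 of 11 were higher (TTN, TPM1, PDLIM3 and NEXN) and 1 lower (TRDN, 2.48 against 13.8 FPKM, not called after scaling), beside 5.35% and 3.69% of all genes. In day 14 aMHC+ over hESC 11 of 17 were higher and 0 lower, beside 8.76% and 6.57% of all genes (median over the 20 of 2.38, with MLIP listed at 0 in hESC), with MYOM1 at 38.2 against 0.115 FPKM and tropomyosin (TPM1) at 3075 against 56.8. In the day 14 pair, where RBM20 was at 3.71 FPKM in aMHC+ and 3.16 in aMHC-, TRDN was called higher in aMHC+ (13.0 against 2.01 FPKM) and TTN stood at 116 against 33.9. Between day 14 aMHC+ and day 7 NKX2-5+, PDLIM3 was called higher (52.9 against 4.46 FPKM), the calcium channel gene RYR2 was called lower after scaling only (7.90 against 28.3 FPKM, -1.72, or -2.31), and the median of the list was -0.23 (-0.77). In day 3 CD13-/ROR2- over hESC, TRDN was called higher (22.8 against 3.89 FPKM). PDLIM3, TRDN, RYR2 and NEXN were named after their values were seen.

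For each regulator the 3 genes with the most similar course over the 7 libraries were taken from 7123 named genes of at least 5 FPKM in some library, by Pearson correlation of log2(FPKM + 1). For RBM20 these were EPM2AIP1 (0.991), MYOZ2 (0.988) and NEXN (0.988). MYOZ2 encodes a Z-disc protein, at 30.5 FPKM in day 7 NKX2-5+ and 10.7 in day 7 NKX2-5-, and NEXN an actin-binding protein of the Z-disc. For RBM24 they were ACOT2 (0.992), DNAJC6 (0.989) and CFL2, the muscle cofilin (0.988). For MBNL2 they were TNFRSF19 (0.991), the paternally expressed gene DLK1 (0.990) and CRLS1 (0.989), with DLK1 at 7.35 FPKM in day 7 NKX2-5+ and 134 in day 7 NKX2-5-.

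For CELF2 the closest were PTPRD, LNPEP and AMHR2 (0.992 to 0.987), for RBFOX2 ANTXR2, SMARCA1 and BEX1 (0.995 to 0.992), and for MBNL3 SPG11, the splicing factor gene SFPQ and KHDRBS1 (0.984 to 0.968). SFPQ stood at 77.0 FPKM in day 3 CD13+/ROR2+ and 22.5 in day 14 aMHC+. MBNL1 was closest to ST7, SERPINF1 and CTTNBP2 (0.965 to 0.951), RBPMS to WEE1, the BMP receptor gene BMPR1A and AIG1 (0.967 to 0.935), CELF1 to RNF34, STARD4 and GFM2 (0.946 to 0.919) and QKI to RHOQ, ZBED3 and the sarcoglycan gene SGCA (0.946 to 0.934). Within the 10 regulators, MBNL1 and MBNL3 had the most negative correlation (-0.825).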

How the data were processed

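Sorted cells were sequenced as single 50-base reads from TruSeq RNA v2 libraries, per the labels' protocols. The authors deposited 1 table of FPKM values with gene symbols and 1 column per library. Cufflinks and hg19 are named in the submitters' processing notes, and the aligner, versions and annotation are not given there. Of 23368 rows, 106 held no FPKM values and were left out. Absolute depth is unknown, and relative depth was read from the spacing of low values.

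In 9 comparisons, log2 of FPKM with a pseudocount of 1 was subtracted, with the 4-fold rule and the minimum of 5 FPKM, in Python 3.11.15 and pandas 2.3.3. Scaling and calling were tested on simulated data. Alternatives were pseudocounts of 0.1 and 5, no minimum, median-ratio scaling (on genes that exceed 1 FPKM in each library), equal sums without 1712 small RNA and histone symbols, and a 2-fold rule.

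Named were the 10 regulators, the 3 genes most like each, and of 14 further lists up to 4 called genes with the largest ratio, or 2 as values where fewer than 2 were called. Exceptions are marked. The regulators and lists were chosen with earlier results of these data known. Start windows come from RefSeq (GRCh38.p14), transcript lengths and overlaps from GENCODE 29.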

Additional observations from a re-analysis of the deposited data

How the results depend on the processing

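The number of the 10 regulators called depended on the settings in 6 of 9 comparisons. With a pseudocount of 0.1 it was 1 in day 7 NKX2-5+ over day 7 NKX2-5- (MBNL2, 0 in the main setting) and 2 in day 7 NKX2-5- over day 3 CD13+/ROR2+ (main 1). With a pseudocount of 5 it was 1 in day 7 NKX2-5+ over day 3 CD13+/ROR2+ (main 2, RBM20 lost), 0 in day 7 NKX2-5- over day 3 CD13+/ROR2+ and 0 in day 14 aMHC+ over hESC (main 1, RBM24 at 1.97). Median-ratio scaling, and equal sums without small RNA and histone symbols, each gave 2 in day 7 NKX2-5- over day 3 CD13+/ROR2+ by adding RBM24, and equal sums also gave 3 in day 7 NKX2-5+ over day 3 CD13+/ROR2+ (MBNL1 added) and 1 in day 14 aMHC+ over day 7 NKX2-5+ (RBM24 lower, -2.06). Without a minimum FPKM it was 3 in day 14 aMHC+ over hESC, with RBM20 and MBNL2 added. A 2-fold rule gave 1 in the day 3 pair (RBPMS), 2 in the day 7 pair (RBM24 and MBNL2), 3 in day 7 NKX2-5+ over day 3 CD13+/ROR2+ (QKI added), 3 in day 7 NKX2-5- over that library, 1 in day 14 aMHC+ over day 7 NKX2-5+ and 2 in day 14 aMHC+ over hESC. Of 450 single ratios recomputed, 439 kept their call or lack of one, 3 lost it, 8 gained one and 0 called ratios changed sign, while 24 uncalled ones did, all under the 2 rescalings. The cause of these moves was not tested. The count of 6 regulators higher in all late libraries, added after the values were seen, was 6 after scaling too, while the share of all genes with the pattern was 18.2% after scaling, against 11.0% as deposited. Low values of RBM20, MBNL1, MBNL2 and RBM24 rest on few fragments, and no replicate exists.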
